A study of Homo sapiens with 8 samples.

Results

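The EGF family ligands and ERBB receptors were followed in MCF10A cells with and without p53 after DNA damage. The members are the ligand genes AREG, EREG, HBEGF, TGFA, BTC, EPGN and NRG1 and the receptor genes EGFR, ERBB2 and ERBB3, 10 of the 20296 genes named on the arrays. The rule that picks them uses gene names and RefSeq accessions. For each gene the value is that of its probe with the highest mean signal over the 8 arrays. All 10 of these probes were well above background on all 8 arrays.

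MCF10A is an immortalised line of human breast epithelium that does not form tumours. p53+/+ cells and a p53-/- derivative were harvested untreated (0 h) or at 12, 24 and 48 h after exposure to doxorubicin (adriamycin), a DNA-damaging anthracycline, at 0.5 µg/ml for 2 h according to the labels. The study asked which genes p53 regulates, and each genotype and time had 1 array, so no value has a replicate error. How the p53-/- line was made and whether it is 1 clone are not given in the sources used here, and the paper's methods give a higher doxorubicin concentration than the labels. All 8 arrays shared a slide and a scan, with p53-/- samples in one column and p53+/+ samples in the other, so genotype and position on the slide cannot be told apart.

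EGF family ligands are made as membrane-anchored precursors that metalloproteases such as ADAM17 release, and they bind ERBB receptor tyrosine kinases, which pair and signal through the RAS-ERK and PI3K pathways. Amphiregulin (AREG), TGF-alpha (TGFA) and epigen (EPGN) bind EGFR, whereas epiregulin (EREG), betacellulin (BTC) and HB-EGF (HBEGF) also bind ERBB4, and neuregulin 1 (NRG1) binds ERBB3 and ERBB4. Mammary epithelial cells use this system for growth and migration, and MCF10A cells are usually cultured with added EGF.

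AREG, EREG, EPGN and BTC lie on chromosome 4, where the RefSeq order of protein-coding genes is MTHFD2L, EPGN, EREG, AREG, BTC and PARM1. The 250 bases before the start of each of these 4 ligand genes are shown because EPGN, AREG and BTC differed between treated genotypes, whereas EREG, which lies among them, gave nearly equal levels. The windows are from RefSeq on GRCh38.p14 and are written 5′ to 3′ on the strand of the gene. They are chr4:74308220-74308469 (+) for EPGN, chr4:74364895-74365144 (+) for EREG, chr4:74444886-74445135 (+) for AREG and chr4:74794524-74794773 (-) for BTC. Capitals mark the TATA motif TATAAA and the cyclic AMP response element TGACGTCA.
EPGN: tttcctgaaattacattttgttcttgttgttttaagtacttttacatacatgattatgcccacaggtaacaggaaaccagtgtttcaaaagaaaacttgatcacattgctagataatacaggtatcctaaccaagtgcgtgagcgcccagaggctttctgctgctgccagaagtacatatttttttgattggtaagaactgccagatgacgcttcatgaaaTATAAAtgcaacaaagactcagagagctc
EREG: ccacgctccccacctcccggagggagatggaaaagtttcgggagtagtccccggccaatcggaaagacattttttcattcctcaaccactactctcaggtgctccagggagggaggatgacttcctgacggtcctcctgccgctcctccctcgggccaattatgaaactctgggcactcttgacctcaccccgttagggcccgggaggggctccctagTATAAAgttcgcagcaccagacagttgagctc
AREG: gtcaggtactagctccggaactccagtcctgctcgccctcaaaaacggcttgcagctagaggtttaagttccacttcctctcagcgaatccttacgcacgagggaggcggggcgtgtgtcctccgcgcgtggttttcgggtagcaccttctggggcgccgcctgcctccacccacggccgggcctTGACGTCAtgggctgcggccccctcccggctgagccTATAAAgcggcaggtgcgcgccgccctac
BTC: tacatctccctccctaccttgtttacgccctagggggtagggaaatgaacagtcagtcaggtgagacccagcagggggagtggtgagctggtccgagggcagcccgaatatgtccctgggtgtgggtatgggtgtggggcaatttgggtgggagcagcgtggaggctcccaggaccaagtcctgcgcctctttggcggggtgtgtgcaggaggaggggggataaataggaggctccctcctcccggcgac

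TATAAA stood 29 bases before the start in EPGN and AREG and 32 bases before it in EREG, and 10.72% of 35116 RefSeq promoter windows of this length hold it. The AREG window also held TGACGTCA, 65 bases before the start, which 1.65% of all windows hold. The BTC window held neither motif on either strand. The AP-1 motif TGANTCA (6.57% of all windows) and a p53 half-site (5.57%) were searched on both strands too and were in none of these 4 windows. A match or its absence describes the letters of the window and nothing about binding.

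The level of a gene, as given below, is the log2 ratio of its processed signal to the 75th percentile of its array. A difference of 1 is 2-fold. Levels of different genes come from different probes and are not compared. The technical SD of a log2 difference, taken from 999 probes printed in 10 spots each, was 0.03 (ERBB2) to 0.32 (BTC) for the differences between treated genotypes. It covers spots on an array and not cultures.

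The array labelled p53+/+ 0 h stood with the p53-/- arrays and not with the treated p53+/+ arrays, so that its label is in doubt. CDKN1A, which encodes the cell cycle inhibitor p21, was at -1.13 on the array labelled p53+/+ 0 h, 2.55 to 2.70 on treated p53+/+ arrays and -2.95 to -0.47 on p53-/- arrays. MDM2, which encodes the ubiquitin ligase of p53, was at -1.65, 1.29 to 1.76 and -2.03 to -1.31 on the same sets of arrays. The array closest to it over all probes was p53-/- 12 h, from which 6.08% of probes differed at least 2-fold and 0 of 10 members did. From the treated p53+/+ arrays 22.2 to 28.9% of probes differed. Its sample identity was not tested further, so changes over time are given from both 0 h arrays, and the comparison of treated genotypes, which needs neither, comes first.

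**Figure D1:**
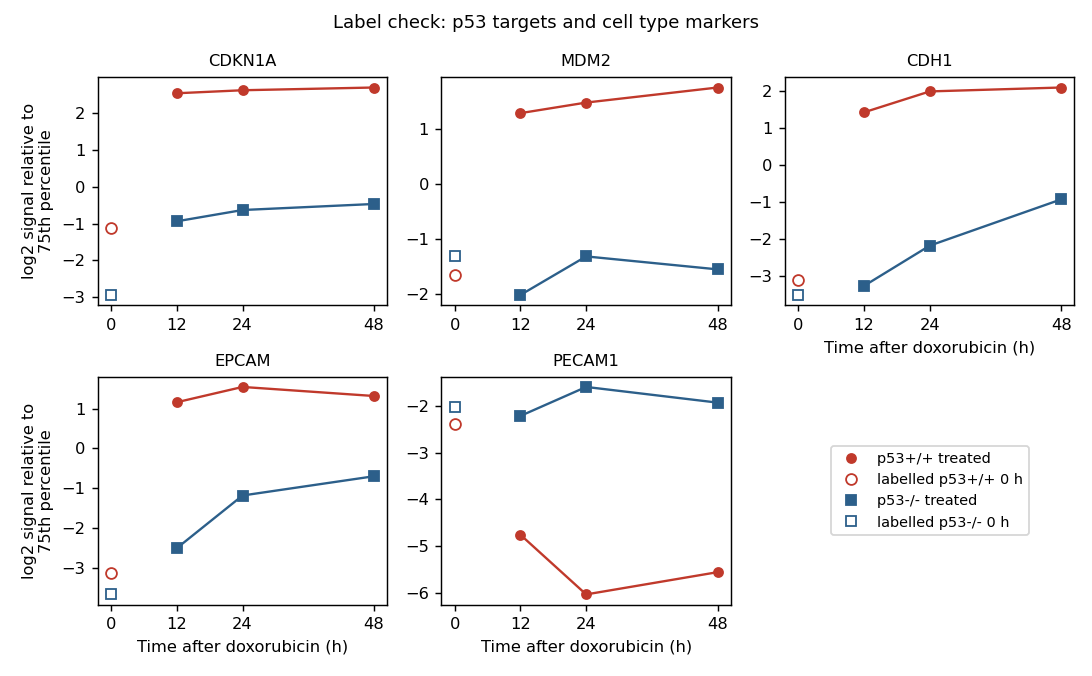
Level (log2 signal relative to the 75th percentile of the array) of the p53 targets CDKN1A and MDM2, the epithelial markers CDH1 and EPCAM and the endothelial marker PECAM1 against time after doxorubicin in h, with red circles for p53+/+, blue squares for p53-/- and open symbols for 0 h, 1 array per symbol. The open red circle lies within the span of the p53-/- arrays for CDKN1A, MDM2, CDH1 and EPCAM, and for PECAM1, at -2.39, it lies nearer to the p53-/- arrays (-2.21 to -1.58) than to treated p53+/+ (-6.04 to -4.76).

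The arrays also differed in markers of cell type. Summed signal of 7 basal mammary epithelial markers (6 or 7 well above background, KRT5, KRT14 and KRT17 on every array) was 353 to 507 times the 75th percentile on treated p53+/+ arrays and 131 to 184 on treated p53-/- arrays. The sum of the pan-epithelial markers EPCAM and CDH1 was 4.93 to 6.91 and 0.279 to 1.14, respectively, with both genes well above background on every array. Of 3 luminal markers (PGR never above background) the sum was 0.694 to 0.988 and 0.241 to 0.444. Of 3 fibroblast markers, 0 were above background on treated p53+/+ arrays (0.0334 to 0.0466) and 1 or 2 on treated p53-/- arrays (0.123 to 0.174), with COL3A1 on none. The endothelial sum was 0.0650 to 0.0896 and 0.245 to 0.385, with PECAM1 above background on every p53-/- array and on 0 treated p53+/+ arrays. The sum of 3 immune markers, of which CD3E was above background only on p53-/- 24 h, was 1.83 to 3.31 and 4.06 to 6.13. CD14 made up most of the immune sum (-1.20, -1.10 and -0.92 between treated genotypes), while PTPRC differed by -0.14, -0.48 and 0.58. PECAM1 carried the endothelial difference, while VWF differed by 0.33, -0.03 and -0.53. Of the fibroblast genes, COL1A1 and PDGFRB were lower in p53+/+ cells at all 3 times. TP63 was the only basal marker not higher in p53+/+ cells at all 3 times (-0.41, -1.26 and 0.81), and it was well above background on 3 of 8 arrays. Among the luminal markers, ESR1 differed by 0.89, -0.09 and 0.93. The part of these differences in the results below was not tested. In bulk RNA, fewer cells of a type and less RNA per cell cannot be told apart.

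Between treated genotypes, AREG and EPGN stood at least 2-fold higher in p53+/+ than in p53-/- cells at 12, 24 and 48 h. These were 2 of 10 members, beside 5.64% of 28947 probes that were higher by the same rule, and 0 members were lower, beside 4.6% of probes. In a limma fit over the 6 treated arrays, 4 of 10 members, all ligands (AREG, EPGN, BTC and TGFA), were higher in p53+/+ cells at an adjusted p under 0.05 (3 with time as a block, without TGFA), beside 10.4% of probes, and 0 were lower, beside 7.46%. The fit uses the 3 treated times of a genotype in place of replicates, so its p-values set the genotype difference against movement over time and not against the spread between cultures. Over the members the median difference was 0.79, 0.40 and 0.70 at 12, 24 and 48 h, and that of all probes was 0.12, -0.02 and 0.18.

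EPGN, which encodes the EGFR ligand epigen, showed the largest difference of the 10. Its level (NM_001270989) was -0.68, 0.03 and 0.37 in treated p53+/+ cells and -2.88, -2.62 and -1.995 in treated p53-/- cells at 12, 24 and 48 h. The 0 h arrays read -2.81 (labelled p53+/+) and -4.05 (p53-/-). The treated genotypes did not overlap, and the lowest level of all was that of untreated p53-/- cells. The log2 difference between genotypes was 2.20, 2.65 and 2.37, a limma mean of 2.40 (SE 0.35, 5.29-fold, adjusted p = 0.0071). The probe was printed in 1 spot, so no spread between spots was available for it.

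AREG, which encodes amphiregulin, an EGFR ligand of the mammary gland, read 6.39, 6.28 and 6.49 in treated p53+/+ cells and 4.57, 5.01 and 4.88 in treated p53-/- cells (NM_001657). The 0 h arrays were at 4.80 (labelled p53+/+) and 5.25 (p53-/-). All 5 arrays other than treated p53+/+ lay between 4.57 and 5.25, below all 3 treated p53+/+ arrays. The difference between treated genotypes was 1.82, 1.27 and 1.61, with a limma mean of 1.57 (SE 0.20, 2.96-fold, adjusted p = 0.0042). A second AREG probe gave 1.41, 1.33 and 1.70 (limma adjusted p = 0.0061). Among the treated times AREG levels spanned 0.21 in p53+/+ and 0.44 in p53-/- cells.

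BTC, which encodes betacellulin, was a dim transcript at -2.70, -2.64 and -2.85 in treated p53+/+ cells and -4.20, -3.28 and -4.20 in treated p53-/- cells (NM_001729). Its 0 h arrays read -3.73 (labelled p53+/+) and -4.18 (p53-/-). The genotypes did not overlap, but the p53-/- array at 24 h lay within 0.64 of the p53+/+ array of that time, with a technical SD of 0.17 for that difference. The limma mean difference was 1.16 (SE 0.29, 2.24-fold, adjusted p = 0.0383).

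TGFA, which encodes TGF-alpha, differed by less. Its level was -0.62, -0.81 and -0.74 in treated p53+/+ cells and -1.39, -1.34 and -1.41 in treated p53-/- cells (NM_003236), with 0 h arrays at -1.30 (labelled p53+/+) and -1.38 (p53-/-). All 5 arrays other than treated p53+/+ spanned 0.10, and the treated p53+/+ arrays lay above them. The limma mean difference was 0.66 (SE 0.17, 1.58-fold, adjusted p = 0.0399), and with time as a block it was not called (adjusted p = 0.0745). A dimmer TGFA probe was well above background in both genotypes only at 24 h, where its difference was 1.38. Its limma difference over the treated arrays was 1.42 (SE 0.34, adjusted p = 0.0332).

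The limma calls of AREG and EPGN held with median scaling, without scaling and with quantile normalization (differences of 0.97 to 1.43 for AREG and 1.81 to 2.30 for EPGN), but AREG lost its 2-fold call without scaling. The limma calls of BTC and TGFA were lost under each of the 3, with differences of 1.03, 0.57 and 1.02 for BTC (adjusted p 0.0559 to 0.194) and 0.52, 0.06 and 0.57 for TGFA (adjusted p 0.0571 to 0.802). Without the 24 h arrays the fit called 0 of 10 members and 291 of 28947 probes in place of 5176, although the differences of AREG (1.72, adjusted p = 0.0851) and EPGN (2.28, adjusted p = 0.140) were of similar size.

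EREG, which encodes epiregulin and lies between EPGN and AREG on chromosome 4, gave nearly equal levels in both genotypes. It read -0.15, 0.40 and 0.37 in treated p53+/+ cells, -0.11, 0.39 and 0.47 in treated p53-/- cells, and 0.16 (labelled p53+/+) and 0.35 (p53-/-) at 0 h (NM_001432). Both 12 h arrays were the lowest of the 8, and the full range was 0.62. The differences between treated genotypes were -0.04, 0.01 and -0.10, beside technical SDs of 0.08 to 0.09, and the limma difference was -0.04 (SE 0.26, adjusted p = 0.929).

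HBEGF, which encodes heparin-binding EGF-like growth factor, changed order with time. Its level was -0.28, 0.17 and -0.83 in treated p53+/+ cells and -1.35, -1.27 and -0.30 in treated p53-/- cells (NM_001945), so that the genotypes overlapped. The difference was 1.07, 1.44 and -0.54 at 12, 24 and 48 h, with technical SDs of 0.08 to 0.09, and the limma difference was 0.66 (SE 0.38, adjusted p = 0.275). Every 48 h difference between genotypes uses the p53+/+ 48 h array, on which 0 of 10 spike-in probes were well above background. Whether this bears on the 48 h values was not tested.

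NRG1, which encodes neuregulin 1, a ligand of ERBB3 and ERBB4, read -1.54, -1.74 and -1.87 in treated p53+/+ cells and -1.60, -1.36 and -1.75 in treated p53-/- cells (NM_004495). The ranges overlapped, with differences of 0.06, -0.39 and -0.12 and a limma difference of -0.15 (SE 0.20, adjusted p = 0.649). A second NRG1 probe gave a limma difference of -0.13 (adjusted p = 0.701).

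**Figure D2:**
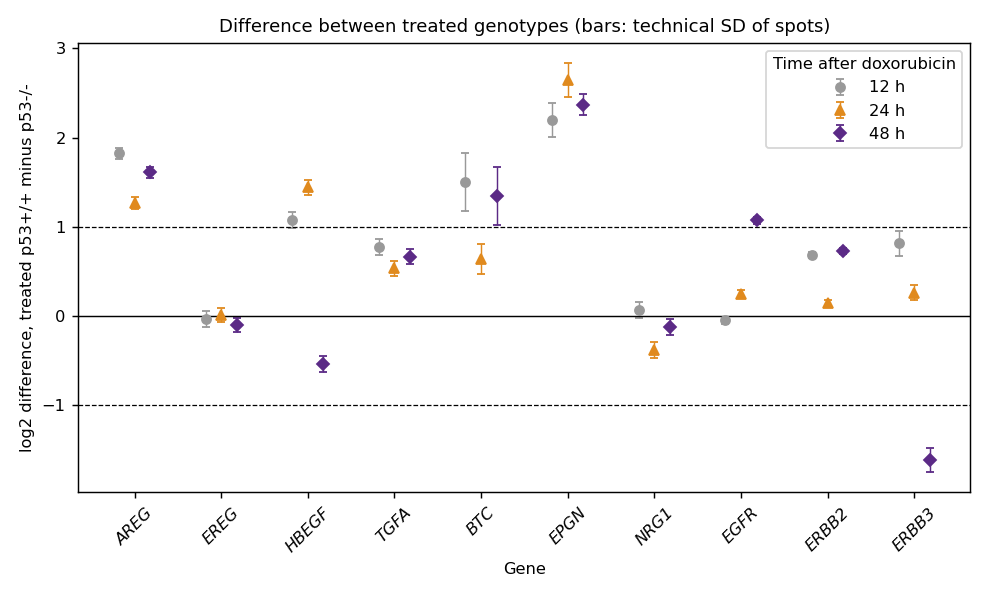
Log2 difference in level between treated p53+/+ and p53-/- cells (y axis) for the 10 genes (x axis) at 12, 24 and 48 h, 1 array per genotype and time. Bars are the technical SD of each difference, from spots, and dashed lines mark 2-fold. EPGN (2.20 to 2.65) and AREG (1.27 to 1.82) lie above the upper line at all 3 times, while HBEGF and ERBB3 cross 0.

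Of the receptors, 0 of 3 passed the limma threshold, beside 10.4% of probes that were higher and 7.46% that were lower. By the 2-fold rule at all 3 times 0 of 3 were apart, beside 5.64% higher and 4.6% lower. A count of 0 of 3 is near these shares and sets no contrast with the ligands. EGFR, the receptor of most ligands here, read -0.44, -0.14 and 0.48 in treated p53+/+ cells and -0.39, -0.39 and -0.59 in treated p53-/- cells (NM_005228), beside -0.71 (labelled p53+/+) and -0.11 (p53-/-) at 0 h. The p53+/+ level was higher at each later time and the p53-/- levels spanned 0.20, so that the difference went from -0.05 at 12 h to 0.25 and 1.07. The limma difference was 0.42 (SE 0.27, adjusted p = 0.319), and without scaling it turned to -0.17. A probe for the shorter transcript NM_201283 followed with 0.18, 0.87 and 1.92 (limma adjusted p = 0.0842), and one for NM_201282 with -0.06, 0.31 and 0.52.

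ERBB2, which encodes the receptor without a known ligand that pairs with the others, read 1.12, 0.72 and 1.19 in treated p53+/+ cells and 0.43, 0.58 and 0.46 in treated p53-/- cells (NM_001005862). The 0 h arrays, at 0.84 (labelled p53+/+) and 0.97 (p53-/-), lay within the p53+/+ range. The treated ranges did not overlap, but the limma difference of 0.52 (SE 0.20, adjusted p = 0.121) did not pass, and without scaling it turned to -0.07.

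ERBB3, the kinase-impaired receptor for neuregulins, depended on the probe. The probe used (NM_001005915) read -1.78, -1.52 and -2.69 in treated p53+/+ cells and -2.59, -1.78 and -1.07 in treated p53-/- cells, with differences of 0.81, 0.26 and -1.61 and a limma difference of -0.18 (SE 0.47, adjusted p = 0.830). A probe for NM_001982 gave differences of 1.78, 0.99 and -0.18 (limma adjusted p = 0.165). On both, the p53+/+ excess was largest at 12 h. By 48 h it had turned on the probe used (-1.61). On the NM_001982 probe it was gone by then, at -0.18 beside a technical SD of 0.17. A further ERBB3 probe was not well above background on any array.

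**Figure D3:**
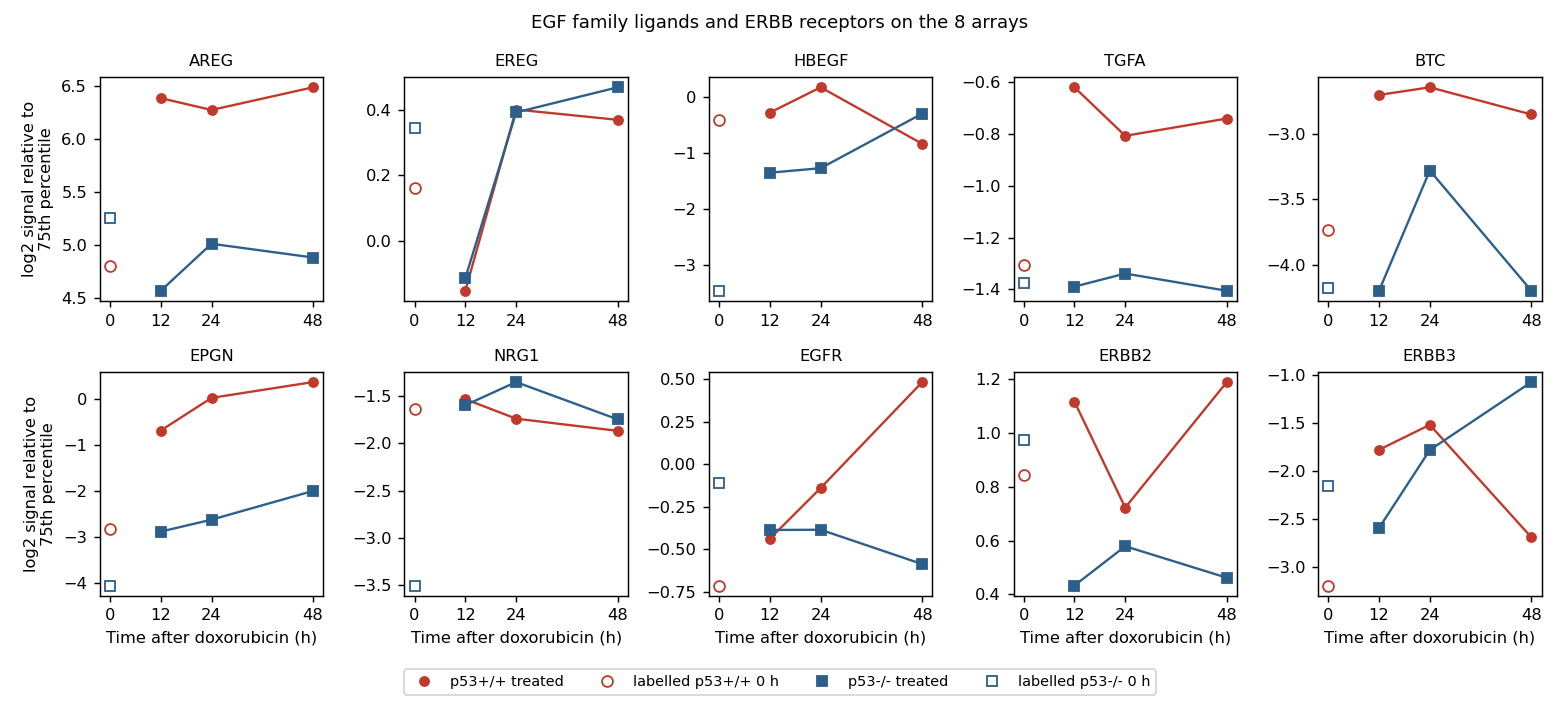
Level (log2 signal relative to the 75th percentile of the array, y axes of different range) of each of the 10 genes against time after doxorubicin in h, with red circles for p53+/+, blue squares for p53-/- and open symbols for the 0 h arrays. The lines of AREG, TGFA, BTC, EPGN and ERBB2 do not meet between genotypes, those of EREG nearly coincide, and the open squares of HBEGF (-3.46) and NRG1 (-3.50) lie below all other arrays.

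Over time in p53+/+ cells, 2 of 10 members, AREG and EPGN, stood at least 2-fold above the array labelled p53+/+ 0 h at all 3 treated times, beside 7.92% of probes, and 0 were lower, beside 5.79%. AREG rose above it by 1.59, 1.48 and 1.69 on the log2 scale at 12, 24 and 48 h, with little order among the times. EPGN rose by 2.13, 2.84 and 3.18 (4.38-, 7.16- and 9.09-fold), with a larger value at each later time. From both 0 h arrays the same 2 genes were called, beside 5.55% of probes that were higher and 3.35% that were lower. The changes from the p53-/- 0 h array were 1.14, 1.03 and 1.24 for AREG, which is close to the 2-fold line, and 3.37, 4.08 and 4.42 for EPGN.

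BTC lay just outside the rule from the array labelled p53+/+ 0 h, at 1.03, 1.09 and 0.88 above it, and inside it from the p53-/- 0 h array, at 1.33 to 1.53 above. ERBB3 was 1.41 and 1.67 above the array labelled p53+/+ 0 h at 12 and 24 h and 0.50 at 48 h, and between -0.53 and 0.64 from the p53-/- 0 h array. The other ERBB3 probe with signal above background was 2.95, 2.78 and 2.44 from the first array and -0.23 to 0.27 from the second. On the first array that probe was not well above background. EGFR was 0.28, 0.57 and 1.20 above the first and -0.33, -0.03 and 0.59 from the second. Its direction therefore depended on the baseline at 12 and 24 h. EREG and ERBB2 differed by 0.50 or less from either array at every time.

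HBEGF in treated p53+/+ cells was 0.13, 0.58 and -0.43 from the array labelled p53+/+ 0 h but 3.18, 3.63 and 2.62 above the p53-/- 0 h array. NRG1 likewise was 0.11, -0.10 and -0.23 from the first and 1.96, 1.76 and 1.63 above the second. The levels of both in treated p53+/+ cells were thus near one untreated array and far above the other. TGFA was 0.69, 0.50 and 0.56 above the first and 0.57 to 0.76 above the second, under 2-fold from either on the probe used. On the dimmer TGFA probe the values were 3.01, 2.63 and 1.85 from the first and 3.19, 2.82 and 2.03 from the second. That probe was not well above background on either 0 h array or on p53+/+ 48 h, so the size of the TGFA change depended on the probe.

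In p53-/- cells, 3 of 10 members, HBEGF, NRG1 and EPGN, stood at least 2-fold above the p53-/- 0 h array at all 3 times, beside 2.59% of probes, and 0 were lower, beside 1.89%. None of these calls held against both 0 h arrays, where 0 of 10 members were higher, beside 0.57% of probes, and 0 lower, beside 0.214%. HBEGF rose by 2.11, 2.19 and 3.16 from -3.46 at 0 h, and NRG1 by 1.90, 2.14 and 1.75 from -3.50. From the array labelled p53+/+ 0 h, at -0.40 for HBEGF and -1.64 for NRG1, the changes were -0.95, -0.87 and 0.11 and 0.04, 0.29 and -0.11. EPGN in p53-/- cells rose by 1.17, 1.43 and 2.06 from the p53-/- 0 h array and was -0.07, 0.19 and 0.82 from the other.

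HBEGF and NRG1 thus had 1 low array of 8, that of untreated p53-/- cells. For HBEGF it lay 2.11 below the next lowest array, and for NRG1 1.63 below. The spots of these probes on an array differed by at most 0.101 for HBEGF and 0.153 for NRG1. Whether the array reflects the untreated state or its own sample was not tested.

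**Figure D4:**
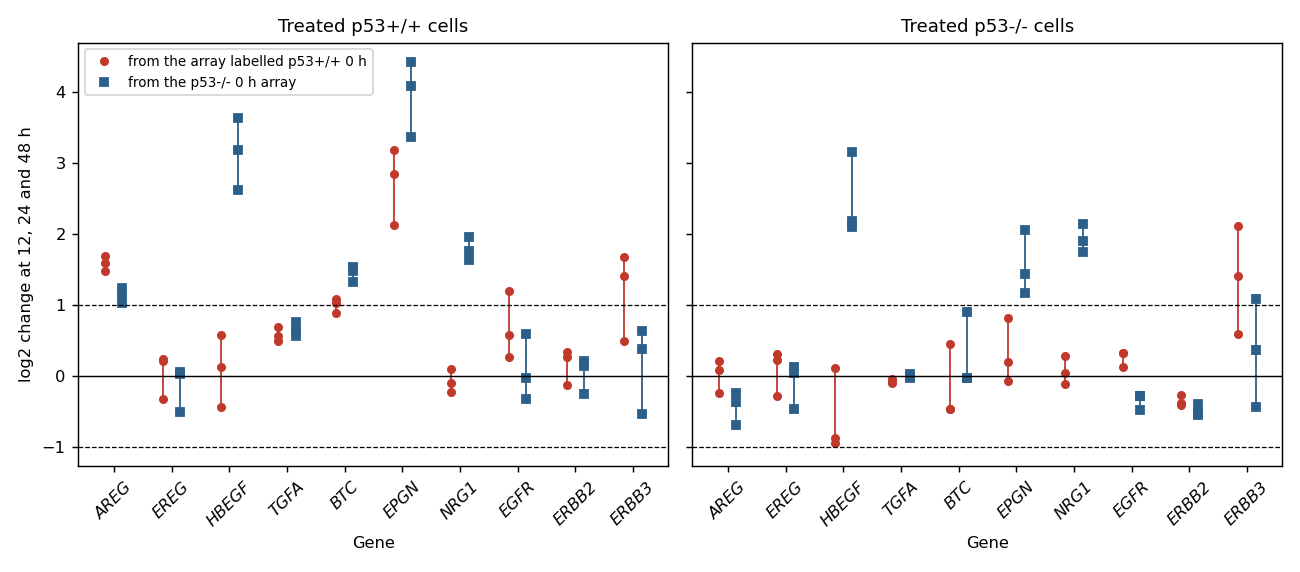
Log2 change in level (y axis) of the 10 genes (x axis) in treated p53+/+ cells (left) and treated p53-/- cells (right) at 12, 24 and 48 h, 1 symbol per time, from the array labelled p53+/+ 0 h (red circles) and from the p53-/- 0 h array (blue squares). Dashed lines mark 2-fold. In p53+/+ cells AREG and EPGN lie above the upper line from either baseline. In p53-/- cells HBEGF, NRG1 and EPGN lie above it only from the p53-/- 0 h array.

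Between the 0 h arrays, 3 of 10 members were at least 2-fold higher on the array labelled p53+/+, beside 4.77% of probes. The differences were 3.05 for HBEGF, 1.86 for NRG1 and 1.24 for EPGN. ERBB3 alone was lower, by 1.03 on the log2 scale, 1 of 10 members beside 5.41% of probes. The other 6 members differed by -0.60 (EGFR) to 0.44 (BTC). Since the label of one of these arrays is in doubt, these values are not given as a comparison of untreated genotypes.

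The rest of the ERBB pathway was described with 35 other genes, of which 31 had a used probe above background on at least 1 array. EGF, NRG2, NRG3 and GAB1 were not above background on any. NRG4 was above background only on p53+/+ 12 h, and ERBB4, the remaining receptor, only on p53-/- 48 h. Between treated genotypes 3 of 31 were at least 2-fold higher in p53+/+ cells at all 3 times (RHBDF2, SPRY1 and SHC1), beside 5.64% of probes, and 1 was lower (ERRFI1), beside 4.6%. By limma 7 were higher (these 3 with ADAM10, SOS2, EGR1 and PHLDA1), beside 10.4% of probes, and 2 lower (ERRFI1 and LRIG3), beside 7.46%. The median difference of the 31 was 0.12, 0.26 and 0.19 at 12, 24 and 48 h.

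RHBDF2, which encodes the iRhom2 partner of the sheddase ADAM17 that frees EGFR ligands, read 2.18, 3.44 and 3.48 in treated p53+/+ cells. The 4 p53-/- arrays and the array labelled p53+/+ 0 h all lay between 0.47 and 0.77. The limma difference was 2.39 (SE 0.37, 5.25-fold, adjusted p = 0.0087). In treated p53+/+ cells RHBDF2 was the 1 gene of 31 above both 0 h arrays by the 2-fold rule, beside 5.55% of probes. The sheddase gene ADAM10 was higher by 0.97 (limma SE 0.25, adjusted p = 0.0395).

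Feedback inhibitors of the receptors moved in both directions. ERRFI1, which encodes MIG6, an inhibitor of the EGFR kinase, read 0.78, 1.09 and 1.66 in treated p53+/+ cells and 2.08, 2.79 and 2.96 in treated p53-/- cells, with 2.04 (labelled p53+/+) and 2.76 (p53-/-) at 0 h. All p53-/- arrays thus lay above all treated p53+/+ arrays, with a limma difference of -1.44 (SE 0.33, adjusted p = 0.0298). LRIG3, of the LRIG family of receptor regulators, was lower too (limma difference -0.86, SE 0.22, adjusted p = 0.0393).

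SPRY1, which encodes the ERK pathway inhibitor Sprouty 1, was higher in p53+/+ cells. It read -0.52, 0.46 and 0.97 in treated p53+/+ cells and -2.45, -2.06 and -1.71 in treated p53-/- cells, with 0 h arrays at -1.64 (labelled p53+/+) and -0.37 (p53-/-). The limma difference was 2.38 (SE 0.41, adjusted p = 0.0122). The p53-/- 0 h array lay among the treated p53+/+ arrays, and SPRY1 in treated p53+/+ cells was -0.15, 0.83 and 1.34 from it, against 1.12, 2.10 and 2.61 from the array labelled p53+/+ 0 h.

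Among adaptors, SHC1, which couples activated receptors to GRB2 and RAS, read 4.98, 5.38 and 5.65 in treated p53+/+ cells and 3.91 to 4.19 on the 5 other arrays (limma difference 1.32, SE 0.23, adjusted p = 0.0125). The RAS exchange factor gene SOS2 was 0.84 higher (limma SE 0.21, adjusted p = 0.0385). Of the 8 transcripts that ERK signalling is known to raise, EGR1 was higher by 0.90 (limma SE 0.21, adjusted p = 0.0318). PHLDA1 was higher by 1.12 (limma SE 0.27, adjusted p = 0.0360), and the other 6 did not pass. Limma called 10.4% of all probes higher and 7.46% lower, and 8 transcripts are too few to set a contrast with these shares.

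**Figure D5:**
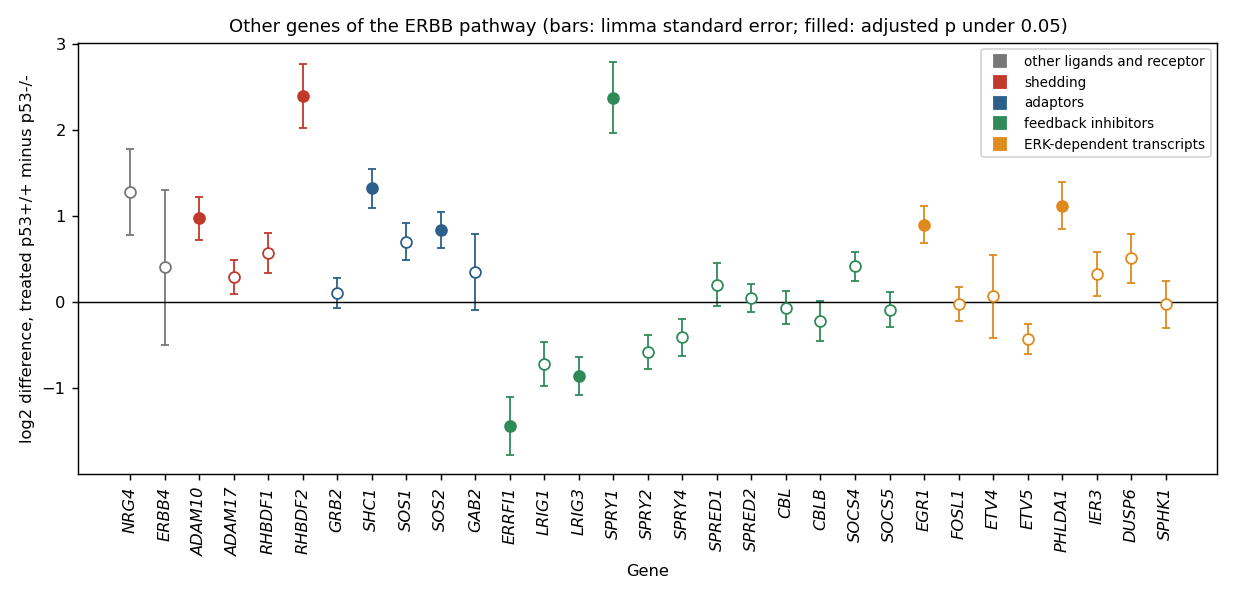
Limma difference in level (log2, treated p53+/+ minus treated p53-/-, y axis) of the 31 other ERBB pathway genes above background (x axis), coloured by role, with the limma standard error as bars and filled symbols for an adjusted p under 0.05. RHBDF2 (2.39) and SPRY1 (2.38) are highest and ERRFI1 (-1.44) is lowest.

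At all treated times, 2 of 31 genes in p53+/+ cells (RHBDF2 and SPRY1) were at least 2-fold above the array labelled p53+/+ 0 h. The share of probes was 7.92%. By the same rule 1 gene (SPHK1, the sphingosine kinase 1 gene) was below it, beside 5.79% of probes. SPHK1 in treated p53+/+ cells was however 0.67, 0.36 and 0.13 above the p53-/- 0 h array. Its direction therefore depended on the baseline. From both 0 h arrays 0 of 31 were lower in p53+/+ cells, beside 3.35% of probes. In p53-/- cells 0 of 31 were above the p53-/- 0 h array, beside 2.59% of probes, and 3 (GAB2, SPRY1 and CBLB) were below it, beside 1.89%. From both 0 h arrays 0 of 31 were called in p53-/- cells, beside 0.57% of probes that were higher and 0.214% that were lower. SPHK1 was the 1 gene of the list higher on the array labelled p53+/+ 0 h than on the p53-/- 0 h array (4.50 against 2.83), beside 4.77% of probes, and 4 (GAB2, SPRY1, CBLB and ETV4) were lower, beside 5.41%. The changes in p53-/- cells and the comparison of the 0 h arrays use the same p53-/- 0 h array.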

How the data were processed

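RNA of MCF10A p53+/+ and p53-/- cells was hybridised in a single colour to 8 Agilent SurePrint G3 arrays (8 groups of 1 by the labels). The authors deposited the scanner output of Agilent Feature Extraction 10.7.3.1, from which the processed signal was used, an intensity on a linear scale after the software's background correction. The deposited table of the series held the same values (503808 of 503808 equal within a relative tolerance of 1e-05). The paper names no normalization between arrays.

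Here each spot's log2 signal was set against the 75th percentile of its array and probes took the mean of their spots, after uneven or outlying spots (233 to 370 per array) were left out, with 0 saturated. The 75th percentile was 659 to 1193 and well above background were 49.8 to 62.9% of probes, fewer on treated p53+/+ arrays (49.8 to 53.1%) than on treated p53-/- arrays (57.4 to 62.9%). Of 10 spike-in probes, 6 were well above background on 7 arrays and 0 on p53+/+ 48 h. Probes were named by accession through RefSeq genes of GRCh38.p14, which matched 27227 of 42391 probes (64.2%) to 20296 genes. The file headers name hg19, so coordinates are given only for promoter windows, with their own build. Promoter entries were found for 8 of the 10 members.

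A change counted when it was at least 2-fold in 1 direction at all 3 treated times. limma 3.58.1 (lmFit and eBayes, R 4.3.3) was fitted to the 6 treated arrays over the 28947 probes that 1 or more arrays showed well above background, with Benjamini-Hochberg adjustment and a threshold of 0.05, and was tested on simulated data. Python 3.11.15, numpy 2.4.6, pandas 2.3.3 and matplotlib 3.10.9 were used. Precision is limited by the number of arrays.

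All members were named, and of the other pathway genes those past the size rule over time or between treated genotypes. Those past limma alone or apart at 0 h were named after their values were seen. For EPGN and HBEGF, the members with the largest range, the 3 genes most correlated over the 8 arrays were named. The members and lists were chosen with earlier results of these data known. The alternatives were median scaling, no scaling, quantile normalization, normexp background correction (offset 50), a gene's probes averaged, a stricter filter and none, a 3-fold rule, each treated time left out, time as a block and the p53-/- 0 h baseline. The p53+/+ 0 h baseline for p53-/- cells and the rule against both 0 h arrays were added after seeing the data. Some results are not reported here.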

Additional observations from a re-analysis of the deposited data

Results flagged for a closer look

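The changes of 2 members after doxorubicin ran in opposite directions in the genotypes, each taken from the 0 h array that carries its label. AREG was above the array labelled p53+/+ 0 h at all 3 times in p53+/+ cells (mean log2 change 1.59) and below the p53-/- 0 h array at all 3 times in p53-/- cells (mean -0.43), so the mean changes differed by 2.02. From the p53-/- 0 h array the p53+/+ mean was 1.13, still above 0 at 3 of 3 times. EGFR had means of 0.68 and -0.34, which differ by 1.03. From the p53-/- 0 h array its p53+/+ mean was 0.08, above 0 at 1 of 3 times. From the array labelled p53+/+ 0 h the p53-/- means were 0.02 (AREG) and 0.26 (EGFR), and without scaling, from the p53-/- 0 h array, they were -0.03 and 0.06, so the opposite directions depend on baseline and scaling. These differences were not tested.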

How the results depend on the processing

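The direction of the treated genotype difference and its side of the threshold depended on scaling for some members. Of 4 members higher by limma, 2 (AREG and EPGN) were called with median scaling, 2 without scaling, 2 with quantile normalization, and 0 to 2 when 1 treated time was left out (2 without 12 h, 0 without 24 h, 2 without 48 h). While 0 were lower by limma, 1 (NRG1) was called lower without scaling. By the 2-fold rule between treated genotypes 1 member (EPGN) in place of 2 was higher without scaling, 1 with a 3-fold rule, 3 without 24 h (BTC added) and 3 without 48 h (HBEGF added). For rises in p53+/+ cells the count was 2, but 4 with the mean of all probes (TGFA and ERBB3 added), 1 with a 3-fold rule (EPGN), 4 without 48 h (BTC and ERBB3 added) and 5 from the p53-/- 0 h array (HBEGF, BTC and NRG1 added). For rises in p53-/- cells it was 3, but 0 from the p53+/+ 0 h array and 0 from both 0 h arrays, and 2 with normexp or a 3-fold rule, which lost EPGN (normexp mean change 0.80 in place of 1.55). EPGN was lost between the 0 h arrays under the same 2 settings. ERBB3, the 1 member lower between 0 h arrays, was not called without scaling, with normexp or with a 3-fold rule (0 each). The mean change of HBEGF in p53-/- cells turned to -0.57 from the array labelled p53+/+ 0 h. Where no value above shows a cause, the cause was not tested.

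Of 110 limma values of members under alternatives, 94 stayed on the same side of the threshold, 15 no longer passed and 1 newly passed. The labels give no replicate numbers. With time as a block, which pairs the genotypes at each time, 3 members were called, and TGFA was not (adjusted p = 0.0745). Without scaling the median of all probes moved to -0.32, -0.50 and -0.67 at 12, 24 and 48 h. Over all probes limma called 5176 (58.3% higher), 4927 with median scaling (45.4%), 9393 without scaling (14.5%), 5115 with quantile normalization (48.3%), 9635 with normexp (72.5%), 12491 with no filter (78.1%), and 2664, 291 and 2625 without 12, 24 and 48 h. By the 2-fold rule 55.1% of calls between treated genotypes were higher, 44.2% with median scaling and 19.7% without scaling. One array per condition and 1 EPGN spot limit these values.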

Other observations

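Genes whose pattern over the 8 arrays was most like that of EPGN were SUSD6 (r = 0.991), ATP6V0C (r = 0.991) and ZNF79 (r = 0.991), among 13752 genes well above background on at least 4 arrays. These are Pearson correlations over 8 arrays of 1 slide that share the scaling and the genotype split, and 842 genes exceeded 0.9, so they describe a pattern that many genes share. SUSD6, which encodes a sushi domain protein, read 1.76, 3.12, 3.68 and 3.96 in p53+/+ (0 h as labelled, 12, 24 and 48 h) and 0.82, 1.46, 1.61 and 1.89 in p53-/- cells. For HBEGF the closest were VMA12 (r = 0.985), PNP (r = 0.968), the purine nucleoside phosphorylase gene, and CD274 (r = 0.967), which encodes the immune checkpoint ligand PD-L1, and 37 genes exceeded 0.9. HBEGF lay 2.11 below its next lowest array on p53-/- 0 h, and each of these genes was lowest there too. CD274 read -6.87 on that array, under the lowest level of any probe well above background there (-5.22).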
